A study of Drosophila melanogaster with 25 samples.

Results

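The nuclear RNA of 2 Drosophila melanogaster cell lines was compared through 8 input libraries, 2 from BG3 cells and 6 from Kc167 cells, out of 22 distinct libraries in the study. BG3 is a line derived from the larval central nervous system, and Kc167, called Kc here, is an embryonic line with properties of blood cells (haemocytes). An input is RNA of a nuclear extract that no antiserum had precipitated. All libraries labelled as input were taken, and Kc input 3, which was listed 2 times with identical files, was counted once. The labels name no treatment, allele or transgene for either, and each tissue of origin is represented by 1 line, so line and tissue of origin cannot be told apart. Cells had been broken open and nuclei purified before lysis, and polyadenylated RNA was selected for sequencing. The labels give each library a biological replicate number, and the p-values rest on those libraries being separate biological samples. The other 14 libraries are RNA precipitated with antisera against the RNA-binding protein Shep or the insulator protein Su(Hw), and those made in both lines with the same antiserum serve below as a second set of libraries.

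Haemocytes lay down much of the basement membrane of the fly, secrete growth factors and immune proteins and engulf dying cells, and lines of this type keep part of that programme. Neural lines carry instead genes for the division of neural precursors, for axon growth and for glia. Nuclear polyadenylated RNA holds transcripts that are being processed and retained noncoding RNAs along with messages on their way out, so a level in it is that of a nuclear pool and not of the whole cell. These libraries are of cell populations, so fewer expressing cells and less RNA per cell cannot be told apart.

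The BG3 inputs held 44147921 and 35270932 reads counted in genes, and the Kc inputs held between 8326741 and 44773161. Alignments counted as not unique, where a read with several positions can enter more than once, made up 73.8% and 85.7% of all lines of the BG3 tables. In the Kc tables they made up between 35.1% and 64.1%, with no overlap between the lines (exact two-sided permutation p = 0.0714, the smallest that 2 against 6 libraries can give). Reads with such alignments were not counted in genes, and their part in the differences below was not tested. Both BG3 inputs belong to the sequencing class (machine and quality encoding) of Kc inputs 4 and 5, while Kc inputs 1 and 2, input 3 and input 6 belong to 3 other classes. The sources used here name only 172 of the 16037 gene identifiers, or 1.07%, and 80 of the named genes were among the 9961 with enough counts to be tested. Of 55 marker genes for neural cells, haemocytes, muscle, fat body, germline and male dosage compensation, 1 had a symbol here (lncRNA:roX1), so the label of neither line could be checked against its defining markers.

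The question was which nuclear RNAs differ in level between the neural and the blood-cell-like line. The difference was wide: 4242 of the 9961 tested genes, or 42.6%, passed edgeR's quasi-likelihood test at a Benjamini-Hochberg adjusted p of 0.05, and such genes are named as called from here on. In BG3 2379 genes (23.9%) were higher and 1863 (18.7%) were lower. At least 2-fold differences were found for 3239 of the called genes (32.5% of those tested), 1845 higher and 1394 lower in BG3. When the test itself asked for a change larger than 2-fold, 2048 genes passed (20.6%), 1225 of them higher and 823 lower. Differences of at least 4-fold were called for 1157 higher and 746 lower genes, and of at least 16-fold for 616 and 381.

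All folds are log2 values of BG3 over Kc, and a negative value means less RNA in BG3. Each is written with a standard error taken as the size of the fold over the square root of its quasi-likelihood F statistic. Where counts are near 0 this standard error can become very large. Levels are CPM, read counts set to one common library size, scaled by TMM, which adjusts that size on the assumption that most genes do not differ. The fit also holds a term for the sequencing class, so a fold is not the plain ratio of the levels printed beside it. The scaling bears on the split into higher and lower genes: with library size alone in place of TMM the median fold of all genes moved by -0.27, 3698 genes were called, and 44.1% of them were higher in BG3, where TMM gave 56.1%. That scaling ended 7 of the named calls, all of them rises: CG2200, Alp11, Mal-B2, Herc4, CG9018, ScsbetaA and CG31875. With the 4 inputs of the class that both lines share, edgeR called 2987 genes, and 2919 of the main calls were found again in the same direction among the 3843 that could be tested. All of those 3843 kept their direction.

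**Figure D1:**
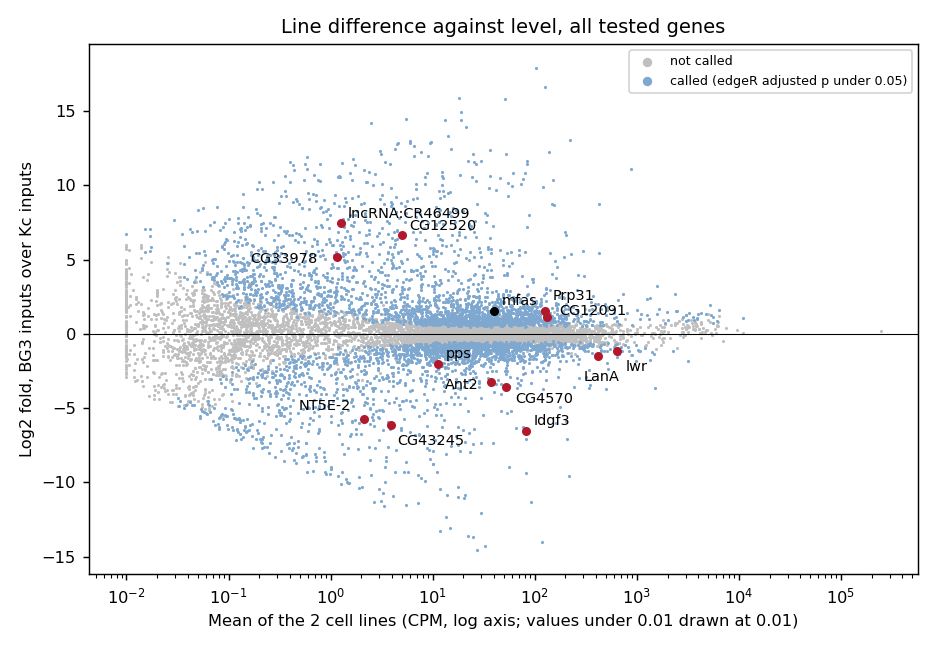
Log2 fold of BG3 over Kc inputs (vertical axis) against the mean level of the 2 lines in CPM (horizontal log axis) for each of the 9961 tested genes, with called genes in blue, others in grey, named called genes in red and named genes that were not called in black. Called genes lie on both sides of 0 at all levels, and Idgf3 lies at -6.51.

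The median size of the log2 fold was 0.81 over all tested genes and 1.77 over the called ones, and the 5th and 95th percentiles of all folds were -3.58 and 4.87. Genes at every level took part. Of 2642 genes below 1 CPM 34.7% were called, of 1898 genes between 1 and 10 CPM 56.3%, of 4219 between 10 and 100 CPM 43.2%, and of 1202 at 100 CPM or more 36.0%. The median standard error was 0.98 in the lowest of these bins and 0.37, 0.26 and 0.27 in the others, so a difference had to be larger to be called among rare RNAs. The calls held more higher than lower genes in each bin, with 553 against 365, 566 against 502, 1015 against 808 and 245 against 188.

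Some RNAs had counts in the inputs of only 1 of the lines. Of the tested genes, 402 had 0 counts in both BG3 inputs and 114 had 0 counts in all 6 Kc inputs. These numbers are not compared, because there were more Kc than BG3 inputs and a rare RNA had more chances of a read there. A tested gene could also have its reads in the precipitates, and how many had 0 counts in the inputs of both lines was not determined. The extremes, chosen after their values were seen, were genes that no source used here names. FBgn0037166 stood at 244 and 166 CPM in the BG3 inputs and had 0 counts in every Kc input, which makes it at least 12198-fold higher in BG3 when the Kc group is set to a floor of 3 counts (edgeR adjusted p = 2.45e-11). FBgn0004863 stood at 277 and 229 CPM in BG3 and had 1 count over the Kc inputs. On the other side FBgn0085466 had 0 counts in BG3 and between 19.6 and 101 CPM in Kc, at least 1389-fold lower in BG3 (edgeR adjusted p = 4.31e-10). FBgn0045852 likewise had 0 counts in BG3 and between 31.7 and 88.3 CPM in Kc, at least 1272-fold lower in BG3 (edgeR adjusted p = 7.37e-09).

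As a share of each library the difference was uneven. One gene, FBgn0085813, took 14.3% and 29.2% of the gene counts of the BG3 inputs and between 13.7% and 30.1% of those of the Kc inputs, and it was not called. Of the remaining counts, genes called at least 2-fold higher in BG3 held 22.6% and 23.1% in BG3 and between 8.89% and 10.3% in Kc. Genes called at least 2-fold lower held 2.48% and 3.28% in BG3 and between 9.73% and 11.4% in Kc. These genes were chosen by that difference, so the shares describe its weight and are no further test of it. Genes that were not called held 65.0% and 63.0% of the remaining counts in BG3 and between 68.3% and 70.4% in Kc.

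The spread within a line gives the scale for these values. Over the 7319 genes at 1 CPM or more, the median absolute log2 difference between the 2 BG3 inputs was 0.41, and over the 15 pairs of Kc inputs it ran from 0.30 to 0.51. Over the 12 pairs that cross the lines it ran from 0.66 to 0.88, so no pair across the lines was as alike as any pair within one. Across these genes, which are not independent replicates, the rank correlation of a pair was 0.961 within BG3, between 0.931 and 0.979 within Kc and between 0.754 and 0.818 across the lines. Genes at least 2-fold apart made up 10.8% of all within BG3, between 5.64% and 20.6% within Kc, and between 34.3% and 44.6% across the lines.

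**Figure D2:**
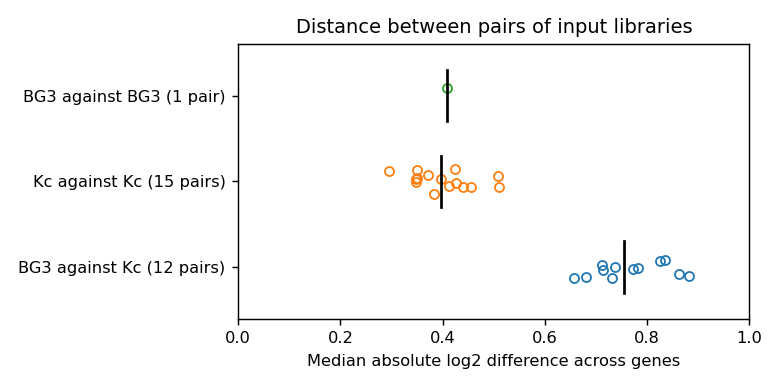
Median absolute log2 difference across the 7319 genes at 1 CPM or more (horizontal axis) for each pair of input libraries, grouped by whether the pair lies within BG3 (1 pair), within Kc (15) or across the lines (12), with a bar at the median of each group. All pairs across the lines lie at 0.66 or above, and all pairs within a line at 0.51 or below.

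The inputs of the 2 lines did not overlap for 4482 of the tested genes (45.0%), 2520 with both BG3 libraries above all Kc libraries and 1962 with both below. Of the called genes, 3626 (85.5%) were of this kind. Among the 80 tested genes with a symbol, 42 were called (52.5%, against 42.6% of all tested genes), 18 higher and 24 lower in BG3. The named genes that differed by at least 2-fold numbered 33, and 20 passed the test for a change beyond 2-fold, 8 higher and 12 lower. In 36 of the 80 the inputs did not overlap. The median log2 fold of the 80 was 0.02, and that of all tested genes was 0.08.

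Among the named genes that reached 10 CPM, the largest fall was that of a secreted protein. Idgf3 (FBgn0020414), whose protein is a chitinase-like growth factor released from the cell, stood at 2.56 and 1.42 CPM in the BG3 inputs, and in the Kc inputs at 114 at the lowest, 165 in the median and 195 at the highest. The groups lay far apart, and the fold was -6.51 ± 0.37 (edgeR adjusted p = 4.26e-11), or 91.0-fold lower in BG3. LanA (FBgn0002526), the laminin alpha chain of basement membranes, stood at 228 and 239 CPM in BG3 and between 412 and 735 in Kc, with a median of 580. All Kc libraries were above both BG3 libraries. LanA fell by 1.48 ± 0.26 (edgeR adjusted p = 0.000162), and it missed the test for a change beyond 2-fold (edgeR adjusted p = 0.0503). Both calls held in all 18 other settings that were run.

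The other secreted proteins with a name were rare or uncertain. mfas (FBgn0260745), midline fasciclin, an extracellular protein with fasciclin domains, stood at 72.6 and 48.5 CPM in BG3 and between 6.97 and 36.8 in Kc, and was not called (1.57 ± 0.70, edgeR adjusted p = 0.0902). Its groups did not overlap, and it is described here although it was chosen after its values were seen. It was called without the class term (edgeR adjusted p = 0.0212), with DESeq2 (0.0415) and with limma voom (0.0350). Swim (FBgn0034709), which binds the signalling protein Wingless outside the cell, stood at 1.98 and 1.12 CPM in BG3 and between 0.125 and 1.13 in Kc, a fold of 2.03 ± 0.67 (edgeR adjusted p = 0.0200). The highest Kc input lay level with the lower BG3 input. The call of Swim ended without BG3 input 1 (edgeR adjusted p = 0.167) or Kc input 4 (0.0611). Spn77Bb (FBgn0036969), a serine protease inhibitor of the serpin family, had 0 counts in BG3 and 20 counts over the Kc inputs, at least 2.51-fold lower in BG3 (edgeR adjusted p = 0.0222), a call that ended without either BG3 input (edgeR adjusted p = 0.128 and 0.103).

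The named genes below are taken by their known roles and not as tested groups, and the genes without a call named beside them are examples chosen after their values were seen. Among those with a role in mitochondria, Mccc2, a subunit of methylcrotonyl-CoA carboxylase (0.15, edgeR adjusted p = 0.702), and Porin2, of the porin family (0.55, 0.601), were not called, while Ant2, ScsbetaA and Coa7 were. Ant2 (FBgn0025111), an adenine nucleotide translocase that exchanges ADP and ATP across the inner mitochondrial membrane, stood at 8.52 and 6.51 CPM in BG3 and between 30.2 and 126 in Kc, with a median of 64.9. The groups did not overlap, and Ant2 fell by 3.24 ± 0.42, or 9.43-fold (edgeR adjusted p = 4.51e-06). Ant2 overlaps the gene of its close relative sesB, and how the counting divided reads between them is not given in the sources used here, so its count is uncertain. ScsbetaA (FBgn0037643), a succinyl-CoA synthetase beta subunit of the citric acid cycle, stood at 221 and 211 CPM in BG3 and between 112 and 196 in Kc. It rose by 0.83 ± 0.22 (edgeR adjusted p = 0.00455), a change that ended with the 8 inputs alone (edgeR adjusted p = 0.123) or without the class term (0.0810). Coa7 (FBgn0039965), an assembly factor of cytochrome c oxidase, stood at 39.0 and 38.9 CPM in BG3 and between 39.7 and 63.7 in Kc.

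The fold of Coa7 was -0.65 ± 0.23 (edgeR adjusted p = 0.0283), and its lowest Kc library lay close to the BG3 level. Its call ended without BG3 input 1, BG3 input 2, Kc input 4 or Kc input 5, with edgeR adjusted p-values of 0.113, 0.119, 0.0519 and 0.0631. bb8 (FBgn0039071), a glutamate dehydrogenase known for its part in sperm formation, stood at 0.522 and 0.712 CPM in BG3 and between 0.623 and 3.69 in Kc, with 1 Kc library inside the BG3 range. Its fold was -1.73 ± 0.43 (edgeR adjusted p = 0.00302), and it was not called with the 8 inputs alone (0.0579) or without the class term (0.0701).

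Of the named genes with a role in RNA processing, Prp31, pps and Boot were called, and Pnn, a protein linked to splicing, was not (0.25, edgeR adjusted p = 0.573). Prp31 (FBgn0036487), a splicing factor of the U4/U6 snRNP, stood at 170 and 190 CPM in BG3 and between 60.0005 and 99.96 in Kc, with a median of 66.1. Both BG3 libraries were above all Kc libraries. Prp31 rose by 1.57 ± 0.23 (edgeR adjusted p = 1.77e-05), or 2.96-fold, and passed the test for a change beyond 2-fold (edgeR adjusted p = 0.0175). pps (FBgn0082831), a partner of the splicing protein Sans-fille that acts in the splicing of Sex-lethal RNA, stood at 3.71 and 3.25 CPM in BG3 and between 10.8 and 41.2 in Kc, with a median of 15.3. The groups did not overlap, and pps fell by 2.01 ± 0.37 (edgeR adjusted p = 0.000232). Boot (FBgn0033374), bootlegger, which works with Nxf3 in the export of piRNA precursors from germline nuclei, stood at 2.17 and 2.95 CPM in BG3 and between 7.22 and 17.5 in Kc, with no overlap and a fold of -2.26 ± 0.43 (edgeR adjusted p = 0.000321).

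Of the named genes with a role in transcription or chromatin, MED1 and Asx were called, while Mau2, part of the cohesin loader (-0.42, edgeR adjusted p = 0.291), and Nasp, a histone chaperone (0.89, 0.184), were not. lwr (FBgn0010602), the SUMO-conjugating enzyme Ubc9, stood at 444 and 301 CPM in BG3 and between 602 and 1140 in Kc, with a median of 953. Its groups did not overlap, and it fell by 1.14 ± 0.26 (edgeR adjusted p = 0.00151). MED1 (FBgn0037109), a subunit of the Mediator complex of transcription, stood at 9.59 and 7.15 CPM in BG3 and between 11.2 and 26.1 in Kc. Its fold was -0.86 ± 0.24 (edgeR adjusted p = 0.00638), and the call ended without BG3 input 2 (edgeR adjusted p = 0.104). Asx (FBgn0261823), a Polycomb group gene whose protein works with the histone H2A deubiquitinase Calypso, stood at 1.70 and 4.34 CPM in BG3 and between 5.66 and 9.84 in Kc.

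The fold of Asx was -1.48 ± 0.44 (edgeR adjusted p = 0.0105). The BG3 libraries differed widely for Asx, and without BG3 input 1 it was not called (edgeR adjusted p = 0.155). For comparison, the aldehyde dehydrogenase gene Aldh (FBgn0012036) stood at 744 and 547 CPM in BG3 and between 435 and 817 in Kc, with no call (0.13 ± 0.26, edgeR adjusted p = 0.730). Both BG3 libraries of Aldh lay inside the Kc range. Aldh was chosen after its values were seen, as an RNA with many counts and little difference between the lines.

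Calls were also made for Herc4 and CSN3, of protein turnover, and for NT5E-2, Mal-B2 and Alp11, of nucleotide, sugar and phosphate metabolism, and none was made for the trehalase gene Treh (0.45, edgeR adjusted p = 0.460). Herc4 (FBgn0035207), a HECT-type ubiquitin ligase, stood at 34.5 and 28.6 CPM in BG3 and between 9.84 and 20.8 in Kc. Both BG3 libraries were above all Kc libraries, and the fold was 0.91 ± 0.21 (edgeR adjusted p = 0.00163). With the 4 inputs of the shared class it was not called (edgeR adjusted p = 0.0693). CSN3 (FBgn0027055), a subunit of the COP9 signalosome, stood at 63.2 and 49.5 CPM in BG3 and between 56.4 and 81.4 in Kc, so that the groups overlapped. Its fold was -0.52 ± 0.20 (edgeR adjusted p = 0.0397). The CSN3 call ended without Kc input 4, 5 or 6 (edgeR adjusted p = 0.0707, 0.0624 and 0.0722). It also ended with the 8 inputs alone (edgeR adjusted p = 0.204) or without the class term (0.337). Without BG3 input 2 the fold of CSN3 was -0.35.

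NT5E-2 (FBgn0050104), an ecto-5'-nucleotidase by name, stood at 0.110 and 0.0339 CPM in BG3 and between 2.43 and 6.72 in Kc, a fold of -5.76 ± 0.69 (edgeR adjusted p = 1.50e-06). Its highest BG3 value was far under its lowest Kc value, and its call held in all other settings run. Mal-B2 (FBgn0032382), a maltase, stood at 1.81 and 1.25 CPM in BG3 and between 0.283 and 1.30 in Kc, a fold of 1.46 ± 0.54 (edgeR adjusted p = 0.0354). The groups overlapped, and leaving out BG3 input 1, BG3 input 2, Kc input 3, Kc input 5 or Kc input 6 ended the call (edgeR adjusted p = 0.210, 0.0520, 0.0574, 0.0743 and 0.0526). Alp11 (FBgn0030661), an alkaline phosphatase, stood at 0.412 and 0.169 CPM in BG3 and between 0 and 0.125 in Kc (2.30 ± 0.83, edgeR adjusted p = 0.0318), and lost its call without BG3 input 1 (0.341), Kc input 4 (0.0799) or Kc input 5 (0.0803).

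**Figure D3:**
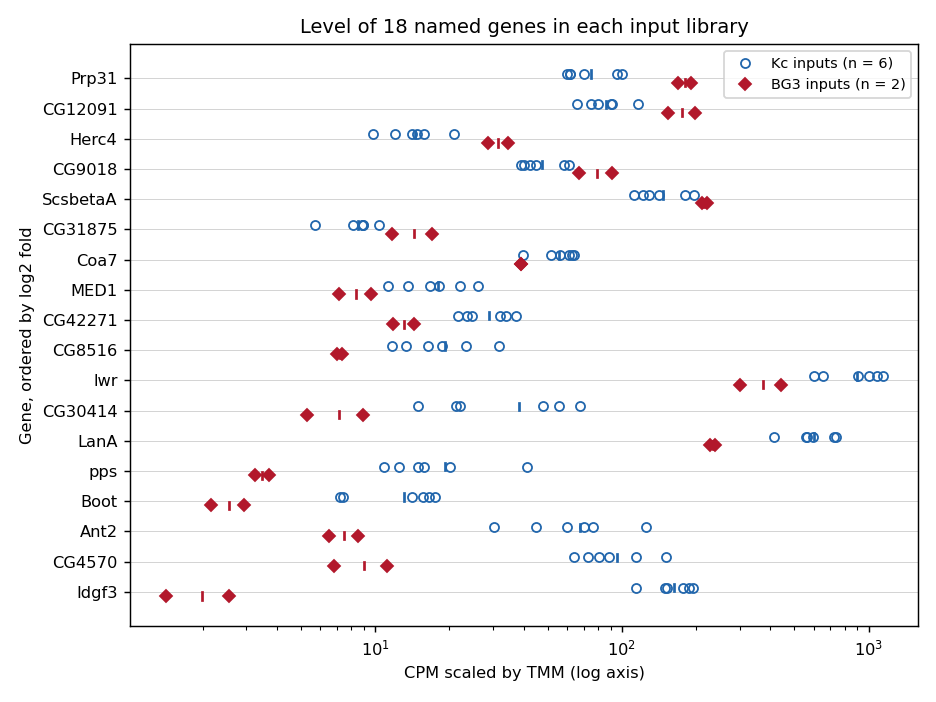
Level of 18 named genes in each input library, in CPM scaled by TMM on a log axis, with Kc inputs as open circles (n = 6), BG3 inputs as filled diamonds (n = 2) and a short bar at each group's mean. The genes are those with a symbol that were called, reached 10 CPM in the higher group and did not overlap, 6 higher and 12 lower in BG3, and Idgf3 shows the widest gap.

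Several named genes mark tissues or functions by their textbook roles, and all of them were near the limit of counting. gcm2 (FBgn0019809), a transcription factor of glial and haemocyte development, had 13 counts over the BG3 inputs and 1 over the Kc inputs, a ratio of 34.5 per scaled read with a 95% counting interval from 5.19 to 1468 (edgeR adjusted p = 0.00397). lncRNA:roX1 (FBgn0019661), a noncoding RNA of the male dosage compensation complex, stood at 0.110 and 0.373 CPM in BG3 and between 0 and 0.125 in Kc. The groups overlapped, and although its fold of 3.33 ± 1.00 was called (edgeR adjusted p = 0.0114), it was not without BG3 input 2 (edgeR adjusted p = 0.221). Mlp60A (FBgn0259209), a muscle LIM protein, had 2 counts in BG3 and 90 in Kc, a ratio of 16.9 with an interval from 4.55 to 142 (edgeR adjusted p = 0.00454, and 0.0542 without BG3 input 2).

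sqa (FBgn0259678), a kinase of the myosin light chain kinase family, stood at 0.137 and 0.339 CPM in BG3 and between 0 and 0.0944 in Kc, a fold of 3.13 ± 0.82 (edgeR adjusted p = 0.00424). Without BG3 input 2 it was not called (edgeR adjusted p = 0.100). Mst98Ca (FBgn0002865), a male-specific transcript of the testis, had 0 counts in BG3 and 13 in Kc, at least 1.63-fold lower in BG3 (edgeR adjusted p = 0.0348). Its call ended without either BG3 input (edgeR adjusted p = 0.157 and 0.129) or without Kc input 5 or 6 (0.0889 and 0.0555). The intervals cover counting error alone. Of the 25 gene lists drawn up for these cells, such as haemocyte factors, neuroblast genes, axon guidance and the basement membrane, 9 had a tested member with a symbol and none had more than 2, so no list is described as a group.

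RNAs named as noncoding were called in both directions. lncRNA:CR46499 (FBgn0029707), an identifier that the gene table pairs with this name only as a synonym, stood at 2.58 and 2.44 CPM in BG3 with 166 counts, against 1 count over the Kc inputs, a ratio of 441 with a counting interval from 78.1 to 17522 (edgeR adjusted p = 1.37e-06). lncRNA:CR43887 (FBgn0264479) stood at 0.385 and 1.39 CPM in BG3 and between 3.51 and 6.27 in Kc, without overlap, and fell by 2.42 ± 0.49 (edgeR adjusted p = 0.000479). lncRNA:CR33987 (FBgn0053987) had 1 count in BG3 and 43 in Kc, a ratio of 16.2 with an interval from 2.75 to 654 (edgeR adjusted p = 0.0138, and 0.108 without BG3 input 2). The calls of lncRNA:CR46499 and lncRNA:CR43887 held in all other settings run.

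Genes known by a CG number, whose roles are not described here, made up the remaining named calls. CG4570 (FBgn0037844) stood at 11.2 and 6.81 CPM in BG3 and between 64.0 and 152 in Kc, with a median of 84.6. The groups were far apart, and CG4570 fell by 3.58 ± 0.36 (edgeR adjusted p = 1.37e-07), or 11.9-fold. CG43245 (FBgn0262890) stood at 0.165 and 0.0678 CPM in BG3 and between 4.62 and 11.05 in Kc (-6.12 ± 0.63, edgeR adjusted p = 2.12e-07). CG13359 (FBgn0025616) stood at 0.330 and 0.169 CPM in BG3 and between 0.944 and 5.27 in Kc (-3.56 ± 0.62, edgeR adjusted p = 0.000121). CG10073 (FBgn0034440) had 0 counts in BG3 and 120 in Kc, at least 15.1-fold lower in BG3 (edgeR adjusted p = 3.25e-06). These 4 calls held in all other settings run, and their groups did not overlap.

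The rises of this kind were led by CG12520 (FBgn0036324), at 3.35 and 15.9 CPM in BG3 and between 0 and 1.11 in Kc (6.64 ± 1.02, edgeR adjusted p = 0.000110). Its BG3 libraries lay far apart, and both were above all Kc libraries. CG33978 (FBgn0053978) stood at 1.57 and 2.88 CPM in BG3 and between 0 and 0.189 in Kc (5.16 ± 0.82, edgeR adjusted p = 4.70e-05). CG30154 (FBgn0050154) had 74 counts in BG3 and 2 in Kc, a ratio of 98.3 with an interval from 26.3 to 827 (edgeR adjusted p = 0.000668). CG7091 (FBgn0038099) stood at 2.34 and 2.64 CPM in BG3 and between 0.147 and 1.79 in Kc, and rose by 2.06 ± 0.56 (edgeR adjusted p = 0.00562). None of these 4 overlapped between the lines.

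Other rises of this kind were in genes with more counts. CG12091 (FBgn0035228) stood at 198 and 154 CPM in BG3 and between 65.9 and 117 in Kc, and rose by 1.16 ± 0.21 (edgeR adjusted p = 0.000162). CG9018 (FBgn0035318) stood at 91.3 and 66.8 CPM in BG3 and between 39.1 and 61.0 in Kc, and rose by 0.89 ± 0.20 (edgeR adjusted p = 0.00110). Neither overlapped between the lines, and CG9018 was not called with library size alone (edgeR adjusted p = 0.102). CG2200 (FBgn0030447) stood at 51.1 and 20.9 CPM in BG3 and between 12.9 and 33.2 in Kc, so that the lower BG3 library lay inside the Kc range. Its rise of 1.10 ± 0.32 (edgeR adjusted p = 0.00900) rested on BG3 input 1, without which the edgeR adjusted p was 0.521. CG31875 (FBgn0051875) stood at 17.0 and 11.7 CPM in BG3 and between 5.73 and 10.4 in Kc (0.61 ± 0.23, edgeR adjusted p = 0.0345), and was not called without BG3 input 1 (0.427) or Kc input 1, 4 or 5 (0.0554, 0.0824 and 0.0930).

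Of the lower genes, CG30414 (FBgn0050414) stood at 8.93 and 5.32 CPM in BG3 and between 14.98 and 67.9 in Kc, where inputs 4 and 5 of the shared class held 14.98 and 22.02. The groups did not overlap, and the fold was -1.38 ± 0.49 (edgeR adjusted p = 0.0310). Without BG3 input 1 or 2 or Kc input 5 or 6 it was not called (edgeR adjusted p = 0.0521, 0.234, 0.0834 and 0.0540). CG8516 (FBgn0037757) stood at 7.01 and 7.35 CPM in BG3 and between 11.7 and 31.6 in Kc (-0.95 ± 0.25, edgeR adjusted p = 0.00517), with 13.3 and 11.7 in Kc inputs 4 and 5. Within that class alone the edgeR adjusted p was 0.0524. CG42271 (FBgn0259166) stood at 14.3 and 11.8 CPM in BG3 and between 21.6 and 37.3 in Kc (-0.92 ± 0.24, edgeR adjusted p = 0.00390, and 0.0589 without BG3 input 2).

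The precipitates ask the same question in libraries that the input comparison did not use, although all share the fit and its class terms. Whether a precipitate and an input with 1 replicate number came from 1 preparation of cells was not tested. No term of the fit links them, so the precipitates are not taken as new biological samples. In BG3 replicate 1, alignments counted as not unique made up 73.8% of the input, 72.7% of Rb5 and 74.5% of Su(Hw). In BG3 replicate 2 they made up 85.7%, 86.6% and 84.2%. The Kc values were 37.3%, 43.7% and 35.0% for replicate 1 and 36.8%, 48.3% and 46.5% for replicate 2. For Kc replicate 3 they were 41.4%, 41.0% and 69.7%. With Shep antiserum Rb5 there were 2 BG3 and 3 Kc libraries, and with Su(Hw) antiserum Gp60 also 2 and 3. The Rb5 libraries of the 2 lines lie in different sequencing classes, so that difference leans on class terms estimated from other groups. Between the lines 3601 genes were called in the Rb5 precipitates (36.2%), 2060 higher and 1541 lower in BG3. In the Su(Hw) precipitates 3823 were called (38.4%), 2222 higher and 1601 lower. Without Kc Su(Hw) library 3, the only Kc library of that group in the class of BG3, 2316 were called.

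Of the genes called in the inputs, 2892 were called in the same direction with Rb5, which is 68.2% of the input calls and 80.3% of the Rb5 calls, and 3 were called in the opposite direction. With Su(Hw) 2823 were called in the same direction, or 66.5% and 73.8%, and 22 in the opposite one. Of the input calls 97.2% had the same sign with Rb5 and 95.002% with Su(Hw). Over the 9961 genes, the folds of the inputs and of the precipitates had a Pearson correlation of 0.923 with Rb5 and 0.854 with Su(Hw), and a Spearman correlation of 0.850 and 0.801. These describe genes that share libraries and class terms and carry no p-value. Called in the inputs and in both precipitates in 1 direction were 2374 genes, or 56.0% of the input calls.

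Among the 42 called genes with a symbol, 40 had the same sign in the Rb5 precipitates and 40 in the Su(Hw) precipitates. Of them 29 and 28 were called there in the same direction. All 3 comparisons called 23 of the 42 in 1 direction, 9 higher and 14 lower. A missing call is not always a missing difference. lncRNA:CR46499 stood at 8.79 and 7.47 CPM in the BG3 Rb5 libraries and at 0.0554, 0 and 0 in the Kc ones. CG30154 stood at 2.80 and 1.97 CPM in BG3 Rb5 against 0, 0.111 and 0.0124 in Kc. Their Rb5 standard errors were 113 and 15.7, and neither was called there (edgeR adjusted p = 0.978 and 0.905). Idgf3 stood at 1.33 and 0.644 CPM in the BG3 Rb5 libraries and at 30.7, 39.9 and 47.4 in the Kc ones, and at 0.857 and 0.589 against 64.6, 80.7 and 69.4 with Su(Hw). Its folds were -5.58 ± 0.39 and -6.85 ± 0.41 (edgeR adjusted p = 2.38e-09 and 4.10e-10). The tests of a difference between these folds and that of the inputs did not pass (edgeR adjusted p = 0.435 and 0.787). Prp31 stood at 95.5 and 117 CPM in BG3 against 38.9, 35.1 and 41.8 in Kc with Rb5, and at 93.6 and 159 against 56.3, 63.5 and 39.4 with Su(Hw).

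Folds of Prp31 were 1.96 ± 0.30 and 1.64 ± 0.27 (edgeR adjusted p = 4.83e-05 and 9.66e-05). LanA stood at 184 and 211 CPM in BG3 against 318, 468 and 547 in Kc with Rb5, a fold of -1.53 ± 0.32 (edgeR adjusted p = 0.00107). With Su(Hw) LanA stood at 528 and 391 against 654, 767 and 1056, a fold of -1.04 ± 0.28 (edgeR adjusted p = 0.00698). Neither Prp31 nor LanA overlapped between the lines in either precipitate, and how many of all tested genes share this was not counted. Of the genes called in the inputs, pps (-0.53 ± 0.43, edgeR adjusted p = 0.358), CG8516 (-0.24 ± 0.30, 0.574) and CG42271 (0.34 ± 0.29, 0.381) were not called with Rb5, and the tests of the difference between inputs and Rb5 did not pass for them (edgeR adjusted p = 0.284, 0.485 and 0.185).

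**Figure D4:**
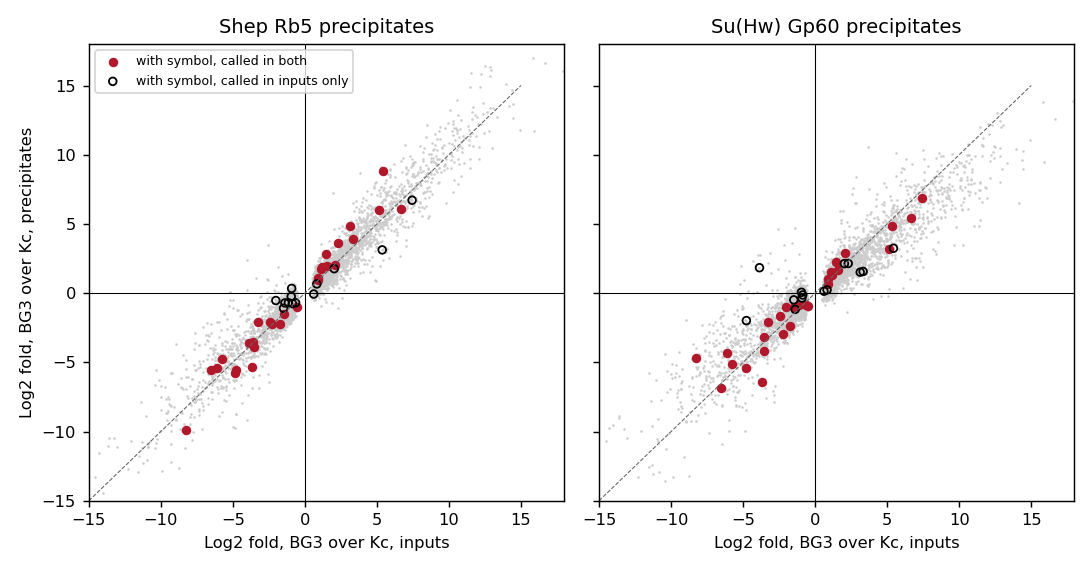
Log2 fold of BG3 over Kc in the inputs (horizontal axis) against that in the Shep Rb5 (left) or Su(Hw) Gp60 (right) precipitates for the 4242 genes called in the inputs, in grey, with the named ones as filled circles where they were called in both and open circles where the precipitate gave no call, and a dashed line of equality. Most points have the same sign on both axes, 97.2% of them on the left and 95.002% on the right, and Mlp60A with Su(Hw) lies above 0 at an input fold of -3.86.

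Whether the line difference itself changed between inputs and precipitates was tested as an interaction. With Rb5 it passed for 9 of the 9961 genes, none of which has a symbol here, and with Su(Hw) for 258 (2.59%). Mlp60A was the 1 gene with a symbol among the latter. Its level with Su(Hw) was 4.76 and 0.617 CPM in BG3 against 0.898, 0.729 and 0.554 in Kc, where the BG3 inputs had held 0.0550 and 0 and the Kc inputs between 0.189 and 0.615. The fitted line difference was -3.86 ± 1.01 in the inputs and 1.84 ± 0.77 with Su(Hw), where it was not called (edgeR adjusted p = 0.0673). The signed shift from the first to the second was 5.70 ± 1.201 (edgeR adjusted p = 0.0142). The 2 BG3 Su(Hw) libraries lay far apart, and 1 of them was within the Kc range.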

How the data were processed

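RNA-seq libraries were taken as the authors deposited them, as raw counts of reads per gene and sample with FBgn identifiers. Per the submitters' processing notes reads were handled with HTSeq, TopHat2, Bowtie2, DESeq and cutadapt 1.2.1 on build dm3. The annotation release and the strand setting were not given in the sources used here, and overlapping and antisense genes are therefore uncertain. Lines that name no gene (61.2% to 91.2% of an input table) were left out. Counts were fitted with edgeR 4.0.16 (limma 3.58.1, R 4.3.3): robust quasi-likelihood test, TMM, minimum count 10 and minimum total 15, 1 mean per group plus sequencing class over all 22 libraries in 8 groups, Benjamini-Hochberg at 0.05, and glmTreat at a log2 fold of 1. BG3 has 2 inputs, so all groups lend the estimate of spread. A prior count of 2 entered log2 CPM between pairs of libraries. The fit was tested on simulated data with 100 genes set to differ by 2-fold and 100 by 4-fold between the inputs. Of those kept in the fit, 18.7% and 82.1% were called, so a gene without a call may still differ. Only 200 genes were set to differ and 9303 entered that fit, whereas 42.6% of the tested genes were called in the data. The adjusted p depends on that share, so the shares recovered in the simulation need not hold for the data. Levels are not per gene length, so levels of different genes are not compared.

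A RefSeq gene table of another assembly supplied the symbols, so no coordinates are given. The members and lists were chosen with earlier results of these data known. The naming rule took, among called genes with a symbol, the 12 largest rises and falls with 10 CPM in the higher group and no overlap, every marker and up to 4 genes a list. Since under 200 tested genes have a symbol, all called ones could be named. No mock precipitation was used here, and no spike-in, so a fold shows a gene's share of its library.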

Additional observations from a re-analysis of the deposited data

Results flagged for a closer look

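Among the 6 Kc inputs, 48 sets of values were examined for a library that stands apart by Dixon's ratio at 95%, and 8 were found. The rate of about 1 in 20 by chance does not hold for counts near 0, so the 8 are not set against it. In Kc input 5 gcm2 and lncRNA:CR46499 stood at 0.0238 CPM and CG30154 at 0.0476 CPM, while all other Kc inputs had 0 counts of each. Those levels are 1, 1 and 2 counts. Dixon's ratio is 1 wherever all other libraries hold 0, so these flags carry no weight. In Kc input 1 Swim stood at 1.13 CPM, the highest, and Mlp60A at 0.189 CPM, the lowest. Spn77Bb stood at 0.284 CPM in Kc input 6, and pps at 41.2 CPM in Kc input 2, each above the other Kc inputs. Alignments counted as not unique made up 64.1% in Kc input 6, the Kc library nearest to the BG3 inputs in this measure.

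For Mlp60A the signed line difference moved from -3.86 in the inputs to 1.84 with Su(Hw), a shift of 5.70 on the log2 scale in the test of the interaction (edgeR adjusted p = 0.0142).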

How the results depend on the processing

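The 4242 calls between the inputs became 2766 with the 8 inputs alone, where 3953 of the calls could be tested, 2740 were found again and all kept their sign. Over the leave-one-out settings the count ran from 3334 without BG3 input 2 to 4286 without Kc input 1, and a single remaining BG3 library is then assumed to vary like the other groups. The other counts lay within 1.5 times: 4244 with RLE size factors, 4272 without the filter, 4177 without the class, 4390 with DESeq2 1.42.0, and, chosen after seeing the data, 4226 without the 10 most abundant genes and 4377 with limma voom. With the replicate block in place of the class the count was 4210, and the block ended the calls of 16 of the 42 named genes. Only replicate numbers 1 and 2 are shared. The deviations of equal numbers correlated at 0.14 and -0.01, and those of unequal numbers between -0.20 and 0.20. With only 2 BG3 inputs their deviations are mirror images, so these values cannot decide whether the numbers are pairs. The main fit does not take them as pairs. For Su(Hw), leaving out 1 library gave 2316 to 3586 calls. Of the 42 named calls 18 held in all of the 18 settings that could test them, and 0 changed direction. With the 8 inputs alone 11 of the 42 ended: CSN3, Mal-B2, Swim, Herc4, MED1, ScsbetaA, CG8516, bb8, Coa7, CG30414 and CG31875. Others, such as gcm2, lncRNA:roX1 and Alp11, had too few counts to be tested with the 8 inputs alone. Aldh, which was not called, changed sign. Aldh was at -0.14 with library size alone, -0.024 with the 8 inputs, -0.0315 within the shared class and -0.11 to 0.40 leaving out libraries. The restricted fits hold fewer samples and genes, and the cause of these changes was not tested. Depth limits genes below 1 CPM, where the median standard error was 0.98.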

Other observations

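Beside the alignments counted as not unique, the libraries differed in 2 further measures. Reads outside any gene made up 14.4% and 37.1% of the uniquely placed reads in BG3 and between 37.0% and 54.6% in Kc (exact two-sided permutation p = 0.143). Genes detected numbered 10343 and 10366 in BG3 and between 8833 and 11082 in Kc (exact two-sided permutation p = 0.786). Neither measure separated the lines.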
